A study of Mus musculus with 6 samples.

Results

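The cells described here are 276 colon cells that pass a T-cell gate inside 2 macrophage libraries of a mouse transplantation series. Of them 129 come from the BM library and 147 from the GVHD library. They are called T cells below by that gate, which proved mixed: not all of them carry Trac or CD3 UMIs, and some carry stromal UMIs. BM stands for mice transplanted with bone marrow alone, and GVHD for mice given bone marrow together with spleen cells, which bring mature donor T cells and set off graft versus host disease. Both libraries were made by 10x Genomics droplet sequencing of colon cells sorted as donor-derived CD11b+ CD64+ macrophages, so the T cells are those that passed a sort meant for another lineage, and their number is no measure of how many T cells the colon held. The other 4 libraries of the series hold the same macrophage sort, and a sort of donor-derived T cells, from WT and IL-34-/- transplant recipients, and are used below only for values side by side. Donor and host T cells cannot be told apart. The strains, the sex and age of the mice, the conditioning, the time after transplantation and how many mice were pooled are not given in the sources used here.

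Members were chosen by their transcripts. A barcode was kept when it had at least 500 genes and at most 10% mitochondrial UMIs (unique molecular identifiers, each a counted RNA molecule). It was called a T cell when the 6 genes Cd3d, Cd3e, Cd3g, Trac, Trbc1 and Trbc2 together had at least 3 UMIs and when Csf1r, the macrophage growth factor receptor, and Epcam, an epithelial adhesion molecule, had none. The 276 cells are part of 5244 kept barcodes in the 2 libraries, and of 4960 cells that pass the same gate among 39613 kept barcodes, from 60605 in all, in the 6 libraries. They make up 5.07% of the kept BM barcodes (exact 95% interval 4.25 to 5.99) and 5.45% of the kept GVHD barcodes (4.62 to 6.37). The gate's edge was thin. Just inside it, 6 BM and 15 GVHD cells had exactly 3 UMIs of the 6 genes, and just outside it 15 BM and 10 GVHD barcodes had 2 and met every other condition.

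Each side is 1 library. No test between BM and GVHD is therefore possible, and no p-value is given. Values are levels in CPM, the UMIs of a gene per 1000000 UMIs of the class of cells named, and ratios of such levels, with exact 95% intervals that cover counting error only and not the spread between mice, which these data do not hold. The labels name a 5′ and a 3′ kit and assign neither to a library, so a difference of kit cannot be told apart from BM against GVHD in any ratio. A gene counts as measured at 20 CPM or more in at least 1 of the 2 libraries and as called at a ratio of 2-fold or more.

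T cells read peptides on major histocompatibility complex (MHC) molecules through a receptor of paired alpha and beta chains, whose constant regions come from Trac, Trbc1 and Trbc2, and signal through the CD3 chains. CD8 T cells kill targets with granzymes and perforin, and CD4 T cells steer other cells with cytokines, of which interferon-gamma marks type 1 responses, IL-4, IL-5 and IL-13 type 2 responses, and IL-17 and IL-22 type 3 responses. In graft versus host disease, donor T cells respond to host antigens, and the gut is one of the organs they injure; innate lymphoid cells, which lack a rearranged receptor, make the same cytokines in the gut wall.

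The libraries share barcodes, which bears on every value below. Of the 5874 BM barcodes, 2502 (42.6%) also stand in the GVHD barcode list, where they are 60% of the barcodes, and 2486 of them had more UMIs in the GVHD library. Every other pair of libraries shared between 5 and 75 barcodes. Shared barcodes were removed from BM, which took 22 cells that passed the T gate, 16 of them with the barcode of a GVHD T cell. In the GVHD library 42 of the 147 T cells carry a barcode that is also in the BM list, and 0 of them had fewer UMIs in GVHD than in BM. After removal the T cells had a median of 6251 UMIs and 2359 genes in BM and of 4375 UMIs and 1984 genes in GVHD, with 2.26% and 2.27% mitochondrial UMIs; together they hold 972944 and 800387 UMIs.

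Against its defining markers the gate proved mixed, and more so in BM. Cd3e had a UMI in 87 of 129 BM cells (67.4%) and 117 of 147 GVHD cells (79.6%), and Trac in 79 (61.2%) and 107 (72.8%). Cells with UMIs of both Trac and a CD3 gene, and without stromal UMIs, numbered 70 in BM (54.3%, 45.3 to 63.1) and 100 in GVHD (68.0%, 59.8 to 75.5), and are called Trac-and-CD3 cells from here on. A further 17 BM and 36 GVHD cells had CD3 UMIs without Trac, and 1 and 2 had Trac without CD3. BM held 28 cells (21.7%, 14.9 to 29.8) that passed on Trbc1 and Trbc2 UMIs alone, against 3 in GVHD (2.04%, 0.423 to 5.85). Cells with at least 3 UMIs of 7 stromal and endothelial genes numbered 13 in BM (10.1%) and 6 in GVHD (4.08%), and held 20% and 10.6% of the T cells' UMIs. The 22 receptor signalling genes summed to 7069 CPM in BM and 6609 CPM in GVHD Trac-and-CD3 cells and to 6983 and 7834 CPM in the cells with CD3 and no Trac, so both classes carry them at like levels, against 4605 CPM in the BM cells with Trbc UMIs alone and 3066 and 2633 CPM in the cells with stromal UMIs. On other lists the 2 classes were less alike in BM. Natural killer and innate lymphoid markers summed to 983 CPM in the BM cells with CD3 and no Trac, against 331 CPM in the Trac-and-CD3 cells. Type 2 genes summed to 869 and 408 CPM in these classes. In GVHD the same sums were 280 and 386 CPM, and 461 and 470 CPM. The division into classes was made after the data had been seen, and the main results below are given for the gate and for the Trac-and-CD3 cells.

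**Figure D1:**
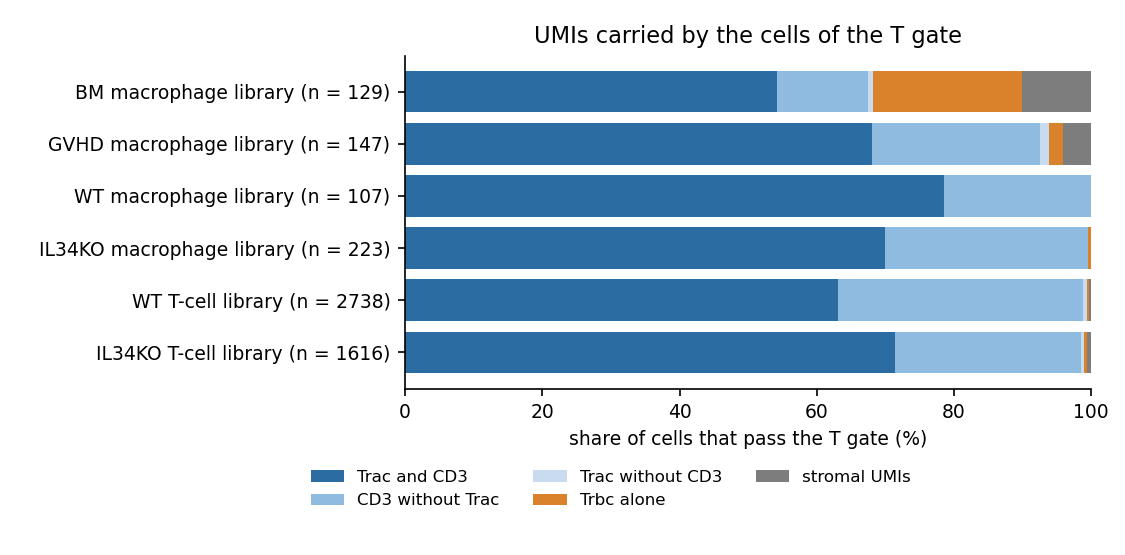
Share of the cells that pass the T gate (percent, x axis) in each class of receptor and stromal UMIs (colours of the stacked bars), for the 6 libraries (y axis, with the number of cells). Cells with T-cell receptor beta constant UMIs alone make up 21.7% in BM and 2.04% in GVHD.

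Promoters of 4 genes, RefSeq entries on GRCm38.p6 that run from 250 bases before to 50 after the transcript start, are shown as examples of 2 groups that were lower in GVHD over the gate: Ifit1 and Ifit3, made under type I interferon, and Il5 and the nearby Il13, type 2 cytokines controlled by GATA3, of which Il13 was too low to be called. Ifit1 lies at chr19:34640639-34640938 (plus strand), Ifit3 at chr19:34583279-34583578 (plus), Il5 at chr11:53720544-53720843 (plus) and Il13 at chr11:53634653-53634952 (minus), each written along its own gene. Capitals mark the interferon response element in Ifit1 and Ifit3 and the GATA motif in Il13.
Ifit1: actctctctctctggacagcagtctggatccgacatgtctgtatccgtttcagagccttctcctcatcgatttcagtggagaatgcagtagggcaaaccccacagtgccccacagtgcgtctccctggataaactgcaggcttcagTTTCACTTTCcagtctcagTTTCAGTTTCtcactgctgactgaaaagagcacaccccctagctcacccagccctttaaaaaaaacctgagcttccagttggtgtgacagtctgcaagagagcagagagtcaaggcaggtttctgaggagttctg
Ifit3: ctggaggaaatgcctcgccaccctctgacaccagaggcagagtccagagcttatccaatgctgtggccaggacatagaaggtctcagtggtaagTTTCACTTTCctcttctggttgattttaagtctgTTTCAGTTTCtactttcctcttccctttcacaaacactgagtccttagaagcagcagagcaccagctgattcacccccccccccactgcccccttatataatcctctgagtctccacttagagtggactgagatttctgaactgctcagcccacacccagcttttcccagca
Il5: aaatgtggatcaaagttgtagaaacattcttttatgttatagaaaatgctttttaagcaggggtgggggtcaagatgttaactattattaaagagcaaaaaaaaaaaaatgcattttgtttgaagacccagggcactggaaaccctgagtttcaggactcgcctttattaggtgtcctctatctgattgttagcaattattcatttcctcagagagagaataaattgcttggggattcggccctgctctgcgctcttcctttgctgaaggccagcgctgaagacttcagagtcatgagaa
Il13: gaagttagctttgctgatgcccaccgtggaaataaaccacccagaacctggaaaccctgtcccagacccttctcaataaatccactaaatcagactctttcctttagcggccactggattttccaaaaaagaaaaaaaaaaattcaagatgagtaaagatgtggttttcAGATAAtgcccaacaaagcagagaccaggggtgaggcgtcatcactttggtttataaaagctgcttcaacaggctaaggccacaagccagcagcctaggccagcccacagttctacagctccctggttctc
The interferon response element was searched as GAAANNGAAA on both strands and was found in 3.44% of 32851 RefSeq mouse promoters of this length. Ifit1 holds it at 104 and 85 bases before the start and Ifit3 at 156 and 122. The GATA motif was searched as AGATAA on both strands and stands in 11.2% of the same promoters. Il13 has 1 match at 81 bases before the start, and the Il5 window has 0. The windows of Ifng and Gzma, searched for the T-box motif GGTGTG, which stands in 19.0% of the promoters, had 0 matches and are not printed. The matches describe letters and not binding.

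CD4 cells were the smaller share in BM. By Cd4 UMIs without Cd8a or Cd8b1, 13 of 129 BM cells (10.1%, 5.48 to 16.6) and 49 of 147 GVHD cells (33.3%, 25.8 to 41.6) were CD4 cells. By Cd8a or Cd8b1 without Cd4, 67 BM cells (51.9%, 43.0 to 60.8) and 55 GVHD cells (37.4%, 29.6 to 45.8) were CD8 cells. Neither co-receptor had a UMI in 49 BM cells (38.0%) and 40 GVHD cells (27.2%), and 3 GVHD cells had both. The BM library thus leaned to CD8 and the GVHD library lay nearer to equal shares.

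The same lean stood in the Trac-and-CD3 cells. CD4 cells were 10 of 70 in BM (14.3%, 7.07 to 24.7) and 32 of 100 in GVHD (32.0%, 23 to 42.1), and CD8 cells 53 (75.7%, 64.0 to 85.2) and 42 (42.0%, 32.2 to 52.3). The CD8 intervals do not overlap, and those of the CD4 shares do. The intervals cover counting error only and not the spread between mice, so their overlap is no test between BM and GVHD. Among such cells of the other 4 libraries CD4 shares ran from 23.4% to 41.7% and CD8 shares from 44.9% to 54.9%, so that BM had the lowest CD4 and the highest CD8 share of the 6 libraries and GVHD the lowest CD8 share. With cells thinned to 1000 UMIs each, for which 2 GVHD cells were too shallow, CD4 shares were 3.10% and 11.7% and CD8 shares 27.9% and 20%. Myeloid cells of the same libraries, which have Csf1r UMIs and none of the 6 gate genes, gave a thinned share with Cd4 of 12.1% in BM and 0.0533% in GVHD, and with Cd8a of 0% and 0.0533%. Gut macrophages are known to carry CD4, so the BM myeloid share is no blank, but the BM T cells' share of 3.10% does not exceed it.

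**Figure D2:**
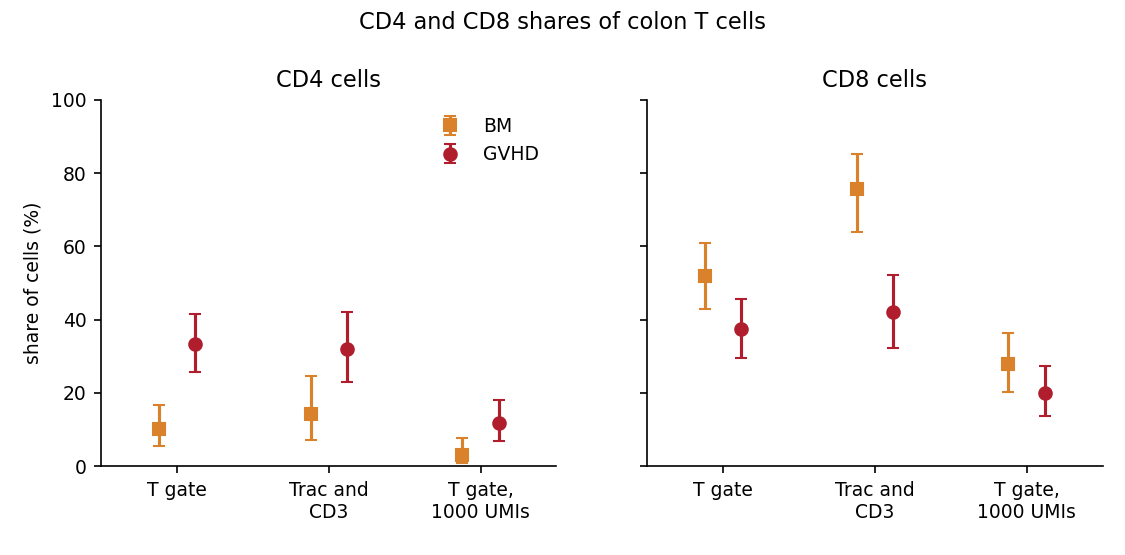
Share of CD4 cells (left) and CD8 cells (right) in percent (y axis) in BM and GVHD, for the T gate, the Trac-and-CD3 cells and the T gate thinned to 1000 UMIs (x axis), with exact 95% binomial intervals for counting error. Among Trac-and-CD3 cells BM stands at 14.3% CD4 and 75.7% CD8, GVHD at 32.0% and 42.0%.

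The CD8 genes themselves did not move together. Cd8a, whose product forms both the alpha-alpha and the alpha-beta co-receptor, stood at 162 CPM in BM and 252 CPM in GVHD, while Cd8b1, which is needed for the alpha-beta form only, stood at 324 and 195 CPM. Restricted to Trac-and-CD3 cells, Cd8a was at 243 and 288 CPM and Cd8b1 at 520 and 209 CPM, 2.49-fold lower in GVHD (2.00 to 3.12). Among the other 4 libraries Cd8b1 lay between 221 and 320 CPM in these cells, so that BM was above all of them and GVHD below. These levels also carry the CD8 share of the Trac-and-CD3 cells, 75.7% in BM and 42.0% in GVHD. Within the CD8 cells among them, Cd8b1 was at 649 and 383 CPM, 1.69-fold lower in GVHD (1.36 to 2.12). Cd8a was at 303 and 539 CPM there, 1.78-fold higher (1.40 to 2.26). Of the 10 measured CD8 lineage genes, Cd160 and Klrd1 were called higher in GVHD and Eomes lower.

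Across all genes, 515 of 7102 measured genes (7.25%) were at least 2-fold higher in the GVHD cells of the whole gate and 546 (7.69%) at least 2-fold lower, around a median log2 ratio of 0.12. Among the 5449 measured genes at least as high in T as in myeloid cells, from which the highest and lowest named genes were taken, the shares were 8.46% and 7.47%. Of 6743 genes measured in Trac-and-CD3 cells, 630 (9.34%) were higher and 333 (4.94%) lower, around 0.079. In the gate, the lists furthest from these shares were type 2 genes, with 8 of 10 lower, type I interferon genes, with 11 of 20 lower, type 3 genes, with 5 of 11 lower, and cell-cycle genes, with 8 of 21 higher. The same lists had 1 of 5, 5 of 16 and 4 of 10 lower, and 1 of 22 higher, in the Trac-and-CD3 cells. The median log2 ratio of the type 2 list went from -2.51 in the gate to -0.37 in those cells, that of the type 3 list from -0.91 to 0.015, and that of the cell-cycle list from 0.84 to 0.10. The type I interferon list had medians of -1.32 and -0.85.

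**Figure D3:**
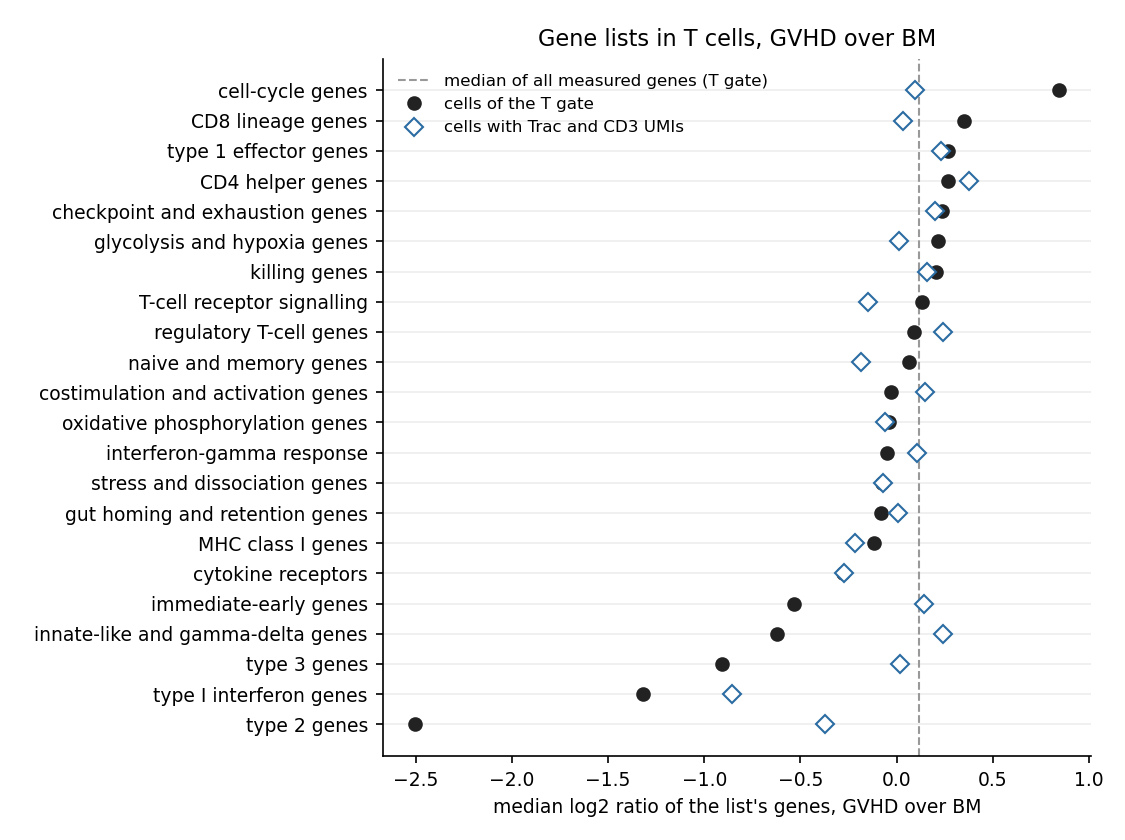
Median log2 ratio of GVHD over BM (x axis) for each gene list (y axis), in the whole T gate (filled circles) and in Trac-and-CD3 cells (open diamonds), with the median of all measured genes as a dashed line. The type 2 list moves from -2.51 to -0.37 and the type 3 list from -0.91 to 0.015 between the 2 sets of cells, and the type I interferon list from -1.32 to -0.85.

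The widest gap between the Trac-and-CD3 cells of BM and GVHD was at H2-Q6 (ENSMUSG00000073409, chr17:35424850-35430055, plus strand, mm10, protein coding) and H2-Q7 (ENSMUSG00000060550, chr17:35439155-35443773, plus strand, protein coding), neighbouring genes for Qa-2, a non-classical MHC class I molecule. H2-Q6 was in 57 of 70 BM cells and 1 of 100 GVHD cells, with 194 UMIs against 1, or 373 and 1.72 CPM. H2-Q7 was in 66 and 17 cells, at 1178 and 39.6 CPM, 29.7-fold lower in GVHD (19.6 to 47.2). Over the whole gate H2-Q6 was 29.9-fold lower (16.5 to 60.4) and H2-Q7 12.8-fold lower. The genes are near-identical copies, so the split of reads between them is uncertain, while both went the same way.

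BM also stood apart from every other library of the series at both genes. In the Trac-and-CD3 cells of the other 4 libraries H2-Q6 was between 2.06 and 3.15 CPM and H2-Q7 between 17.4 and 28.4 CPM, close to GVHD. The myeloid cells of the same 2 libraries showed the gap too, with H2-Q6 at 93.2 CPM in BM and 0.98 CPM in GVHD, and H2-Q7 at 183 and 12.9 CPM. The gap was thus seen in both kinds of cell, and its cause was not tested.

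The other class I genes were much closer together. The 21 genes of the MHC class I list include the classical heavy chains, their light chain and the peptide loading machinery. H2-Q6 and H2-Q7 were the only ones called in the gate, and in the Trac-and-CD3 cells H2-T22 joined them, at 156 and 63.8 CPM (2.45-fold lower, 1.64 to 3.71). The classical heavy chain genes H2-K1 and H2-D1 had log2 ratios of -0.44 and -0.54 in those cells, B2m, the shared light chain, -0.36, and H2-Q4, another gene of the Q region, 0.23.

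Cytotoxic genes were led by Gzma (chr13:113093825-113100981, minus strand), which codes for the serine protease granzyme A. It stood at 517 CPM in BM T cells and 2249 CPM in GVHD T cells, 4.35-fold higher (3.94 to 4.81), from 22 of 129 and 39 of 147 cells. In the Trac-and-CD3 cells it was at 822 and 2873 CPM, 3.50-fold higher (3.14 to 3.90), in 18 of 70 cells (25.7%) and 30 of 100 (30.0%). The shares of positive cells were thus closer than the levels. In the CD8 cells among them, 16 of 53 and 24 of 42 were positive, at 955 and 5299 CPM (5.55-fold higher, 4.97 to 6.21). The other libraries' Trac-and-CD3 cells ranged from 1239 to 3090 CPM with 27.3% to 31.3% positive, so that BM was the lowest library in level and GVHD within their range. A single BM cell held 290 of the 427 BM UMIs; without the cell with most UMIs on each side the ratio was 8.28-fold.

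Gzmb, Prf1 and Fasl differed less than Gzma. Gzmb, granzyme B, was at 683 and 1057 CPM in the gate (1.55-fold higher, 1.40 to 1.71) and at 1088 and 1306 CPM in the Trac-and-CD3 cells (1.20-fold, 1.08 to 1.34), in 49 of 70 and 58 of 100 cells. Every BM Trac-and-CD3 cell with Gzma also had Gzmb, while 5 of the GVHD cells had Gzma without it. Perforin's gene Prf1 was level in the gate, at 120 and 117 CPM, and Fasl, a death receptor ligand, was at 107 and 82.5 CPM. Of the 22 killing genes, Gzma, Gzmc, Gzmf and the receptor gene Klrd1 were called higher in GVHD and Klrg1 lower in the gate, with a median of 0.20 beside 0.12 for all genes; in the Trac-and-CD3 cells 5 were higher and 1 lower, with a median of 0.16 beside 0.079.

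The granzymes Gzmd, Gzme and Gzmf were found on the GVHD side only, in very few cells. They had 0 UMIs in BM and 49, 37 and 45 UMIs in GVHD, with 49 in 1 cell, 34 in 1 of 3 cells and 35 in 1 of 3 cells. These genes lie in 1 cluster and resemble each other, so their counts may be shared among them.

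Of the type 1 cytokine and chemokine genes, Ifng, Ccl3 and Ccl4 were higher in GVHD, in part through single cells. Ifng, interferon-gamma, was at 342 and 838 CPM (2.45-fold higher), in 69 of 129 and 101 of 147 cells, and 1.84-fold higher without the cell with most UMIs on each side. Within the Trac-and-CD3 cells it was at 452 and 877 CPM (1.94-fold, 1.66 to 2.27) from 48 of 70 (68.6%) and 70 of 100 cells (70.0%), and 1.28-fold (1.07 to 1.53) without the top cells, since 1 GVHD cell held 207 of the 509 UMIs. As many cells were positive on both sides, and most of the ratio rests on that cell.

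Ccl3 and Ccl4 code for chemokines that draw leukocytes to inflamed tissue. Ccl3 was at 114 and 767 CPM (6.72-fold higher), but 378 of the 614 GVHD UMIs came from 1 cell, and without the top cells the ratio was 3.16 (2.47 to 4.06). Trac-and-CD3 cells gave a ratio of 8.61, or 3.60 without the top cells, and BM's 117 CPM lay below the 684 to 1012 CPM of the other 5 libraries. Ccl4 was at 334 and 551 CPM in the gate and 337 and 674 CPM in the Trac-and-CD3 cells (2.00-fold, 1.67 to 2.40). Both chemokines were also made by the myeloid cells, Ccl3 at 606 CPM in BM and 131 in GVHD and Ccl4 at 1251 and 216, the opposite order to the T cells.

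Other type 1 genes spread in both directions. Il12rb2, a chain of the IL-12 receptor, was 2.12-fold higher in the gate and 1.67-fold (1.34 to 2.09) in the Trac-and-CD3 cells. Tbx21, the type 1 master regulator, was at 169 and 144 CPM, and Tnf at 73.0 and 117 CPM. Ccl5, a chemokine of effector CD8 cells, was at 7022 and 5597 CPM. The chemokine receptor gene Cxcr3 was at 24.7 and 6.25 CPM, 3.95-fold lower (1.48 to 13.3), on 24 and 5 UMIs. Of 19 measured type 1 genes, 3 were higher and 2 lower, with a median of 0.27.

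Genes of naive and memory T cells split. Lef1 (chr3:131110471-131224356, plus strand), a transcription factor of naive and memory cells, was at 37.0 and 252 CPM in the gate (6.82-fold higher in GVHD, 4.77 to 10.0), in 20 of 129 and 57 of 147 cells. Its level in Trac-and-CD3 cells was 55.8 and 257 CPM (4.60-fold, 3.07 to 7.10), in 14 of 70 cells (20%) and 40 of 100 (40%). The other 4 libraries lay between 99.3 and 166 CPM, so BM was the lowest and GVHD the highest of the 6. After thinning, 3.88% of BM and 17.2% of GVHD gate cells had a Lef1 UMI, with 0% and 0.0533% of the myeloid cells.

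Satb1, a chromatin organizer, was at 256 and 603 CPM in the Trac-and-CD3 cells (2.36-fold higher, 1.92 to 2.90) and Bcl2, a survival factor, at 160 and 352 CPM (2.20-fold, 1.70 to 2.88). Both had ratios near 2 in the gate as well. Going the other way, Tcf7, which codes for a transcription factor of the same family as Lef1, was at 68.9 and 23.7 CPM in the gate, 2.90-fold lower (1.72 to 5.11), on 67 and 19 UMIs. Il7r, the receptor for the survival cytokine IL-7, was at 221 and 48.7 CPM, 4.54-fold lower (3.21 to 6.55). In the Trac-and-CD3 cells Il7r was at 123 and 37.9 CPM, 3.25-fold lower (1.98 to 5.54), in 15 of 70 and 12 of 100 cells, while the myeloid cells held it at 130 and 166 CPM. Ccr7, the lymph node homing receptor of naive cells, was at 21.6 and 23.7 CPM, alike on both sides. The list of 17 measured genes had 4 higher and 4 lower, with a median of 0.064.

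A few checkpoint genes were higher in GVHD. Ctla4, an inhibitory receptor, was at 278 and 600 CPM (2.15-fold higher), in 71 of 129 and 120 of 147 cells, but 1.39-fold (1.17 to 1.65) in the Trac-and-CD3 cells. Lag3 had 4 and 22 UMIs and Btla was at 8.22 and 40.0 CPM, both few, and both lowest in BM among the 6 libraries' Trac-and-CD3 cells, with Lag3 at 3.85 CPM in BM and 24.5 to 39.0 CPM elsewhere. Pdcd1, which codes for PD-1, was at 245 and 201 CPM and did not reach 2-fold. Of 20 genes 4 were higher and 1 lower, with a median of 0.24, and in the Trac-and-CD3 cells 3 were higher and 0 lower.

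The costimulatory receptor gene Cd28 went the other way within the Trac-and-CD3 cells, at 776 and 419 CPM, 1.85-fold lower (1.58 to 2.18), against 253 to 315 CPM in the other 4 libraries. Tnfrsf4, which codes for OX40, was 2.10-fold higher in the gate and 1.30-fold (0.979 to 1.72) in the Trac-and-CD3 cells, an interval that includes no difference. Among genes of receptor signalling, Themis, a thymocyte and T-cell adaptor, was 2.43-fold higher in the gate and 1.66-fold (1.45 to 1.89) in the Trac-and-CD3 cells, and of 22 such genes 2 were called in the gate and 0 in those cells. Of 20 gut homing genes, 2 (10%), Itgae and Ccr9, were higher in the gate and 2 (10%), Itgb7 and Ccr2, lower. These shares are near the 7.25% and 7.69% of all measured genes. In the Trac-and-CD3 cells only Ccr9 was called higher and only Itgb7 lower. Itgb7, the beta chain of the gut homing integrin, was 2.11-fold lower (1.45 to 3.10) in the Trac-and-CD3 cells.

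Foxp3, the defining factor of regulatory T cells, had 10 UMIs in 3 BM cells and 4 UMIs in 3 GVHD cells, and in the Trac-and-CD3 cells 10 and 0 UMIs. At this depth a cell without a Foxp3 UMI may still express the gene. Il10 was at 9.25 and 70.0 CPM, with 35 of the 56 GVHD UMIs in 1 cell.

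Among genes outside the lists, Smad3, a signal carrier of transforming growth factor beta, was at 293 and 56.9 CPM in the Trac-and-CD3 cells, 5.15-fold lower in GVHD (3.51 to 7.74), in 42 of 70 and 18 of 100 cells. Abcb1b, a multidrug efflux pump, was at 785 and 190 CPM, 4.14-fold lower (3.35 to 5.16), in 59 and 40 cells. In the other 4 libraries Smad3 lay between 52.3 and 88.2 CPM and Abcb1b between 118 and 253 CPM, on the GVHD side of BM. The order was the same in myeloid cells, with Smad3 at 78.8 CPM in BM and 30.1 in GVHD and Abcb1b at 116 and 31.9. In the higher direction, Trerf1 was at 23.1 and 148 CPM (6.42-fold, 3.49 to 12.9), Nrgn at 21.2 and 153 CPM (7.24-fold, 3.86 to 15) and Apol7e at 7.70 and 67.2 CPM (8.73-fold, 3.15 to 33.6), the last in 3 of 70 and 28 of 100 cells. For these genes too the other 4 libraries lay with GVHD or beyond it, Trerf1 at 269 to 328 CPM and Nrgn at 116 to 155.

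**Figure D4:**
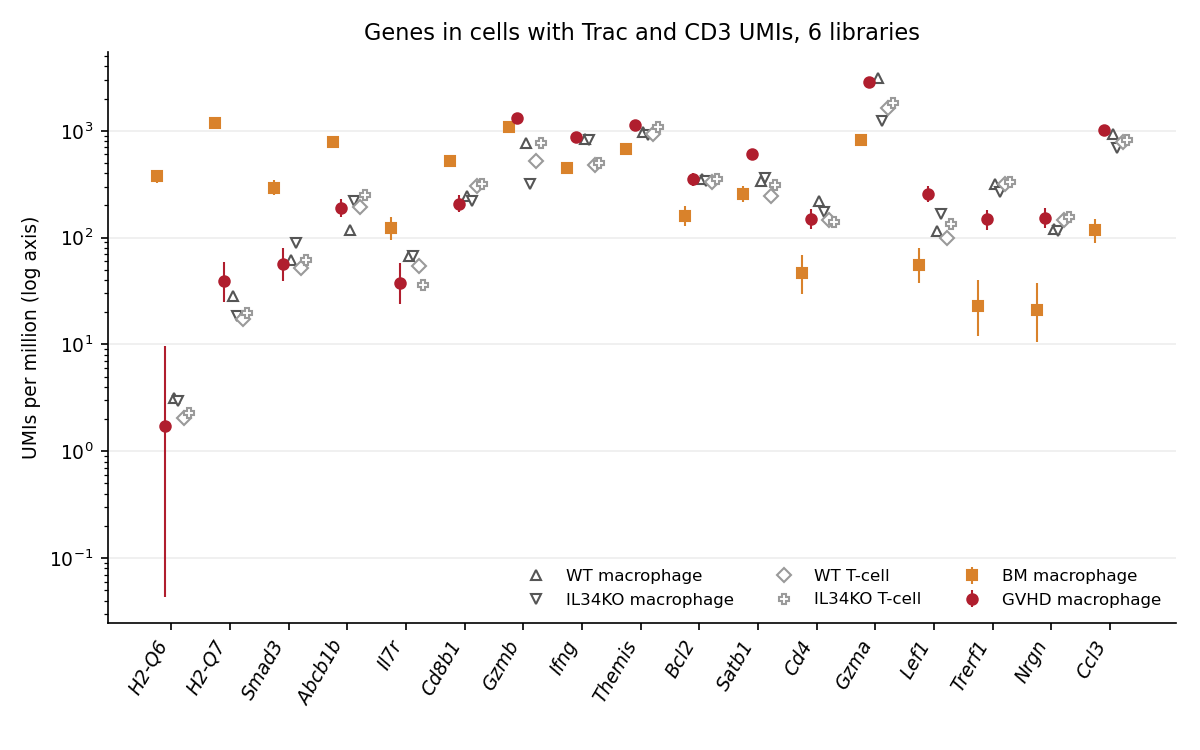
Levels in Trac-and-CD3 cells (CPM on a log y axis) of selected genes (x axis) in the 6 libraries, with exact 95% Poisson intervals for BM and GVHD. H2-Q6 stands at 373 CPM in BM and between 1.72 and 3.15 CPM in the other 5, while for Gzma the BM library, at 822 CPM, is the lowest.

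Most UMIs of the type 2 cytokines lay in the BM cells with Trbc UMIs alone. These 28 cells had a median of 6047 UMIs, so they were not shallow. They held 121 of the 128 BM UMIs of Il5 (chr11:53720794-53725106, plus strand), which codes for the eosinophil growth factor whose promoter is printed above. They also held 29 of 35 of Il4, 15 of 15 of Il13 and 29 of 29 of Lif, and 17 of the 28 cells had a UMI of Il4, Il5 or Il13. In the GVHD gate Il4, Il5 and Lif had 0 UMIs. With 3 counts in the GVHD class put in place of 0, Il5 was 35.1-fold and Il4 9.60-fold lower than in BM. These ratios rest on that floor and are not lower bounds. A single BM cell held 66 of the 128 Il5 UMIs, and without it the floor-based ratio for Il5 is 17.1-fold. Il13 had 15 UMIs in BM and 6 in GVHD. The Trac-and-CD3 cells of both sides had 0 UMIs of Il4, Il5 and Lif.

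The same 28 cells held the regulators and receptors that go with those cytokines. Gata3, the type 2 master regulator, had 172 of its 296 BM UMIs (58.1%) there, and Il1rl1, the IL-33 receptor, 82 of 110 (74.5%). Kit, the stem cell factor receptor, had 96 of 106, Il7r 111 of 215 (51.6%) in 26 cells, Csf2, a myeloid growth factor, 158 of 208 (76.0%), and Areg, a tissue repair factor, 181 of 384 (47.1%). Rora, a nuclear receptor, was at 4008 CPM there and 753 CPM in the BM Trac-and-CD3 cells. Kit and Csf2 turned direction with the cells counted: they were lower in GVHD over the gate (109 and 37.5 CPM, and 214 and 121 CPM) but higher in the Trac-and-CD3 cells (4.18-fold and 3.27-fold). In those cells 1 GVHD cell held 17 of the 28 Kit UMIs, and without the top cells the ratio was 3.41 (0.90 to 19.0), an interval that includes no difference. The Csf2 ratio there rests on 4 and 8 cells, with 39 of 62 GVHD UMIs in 1.

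Some T-cell genes were at 0 UMIs in these cells and others were not. Gzma, Gzmb, Themis, Cd8a, Cd8b1, Cd5, Cd6 and Eomes had 0 UMIs there, where the BM Trac-and-CD3 cells had Gzmb at 1088 CPM and Themis at 678 CPM. Present were Zap70, a kinase of receptor signalling, at 156 and 158 CPM in the 2 classes, Cd28 at 474 and 776 CPM, Icos at 469 and 281 CPM and Lck, another such kinase, at 75.4 and 281 CPM. Lower in these cells than in the BM Trac-and-CD3 cells were Cd2, Cd247 and Thy1, at 16.2, 37.7 and 91.6 CPM against 277, 346 and 354 CPM. Of the 22 receptor signalling genes 19 had a UMI in the Trbc-alone cells. The 12 natural killer and innate lymphoid markers, summed, stood at 2349 CPM (2133 to 2580) in them, against 331 in the BM and 386 in the GVHD Trac-and-CD3 cells, and over the gate at 755 CPM in BM. Ncr1, one of these markers, had 13 of its 14 BM UMIs there and 0 UMIs in GVHD. The 12 type 2 genes summed to 3771 CPM (3496 to 4061) against 408 and 470. How far cells of another lineage make up this class was not tested. In the other 4 libraries 0, 1, 7 and 8 gate cells had Trbc UMIs alone.

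**Figure D5:**
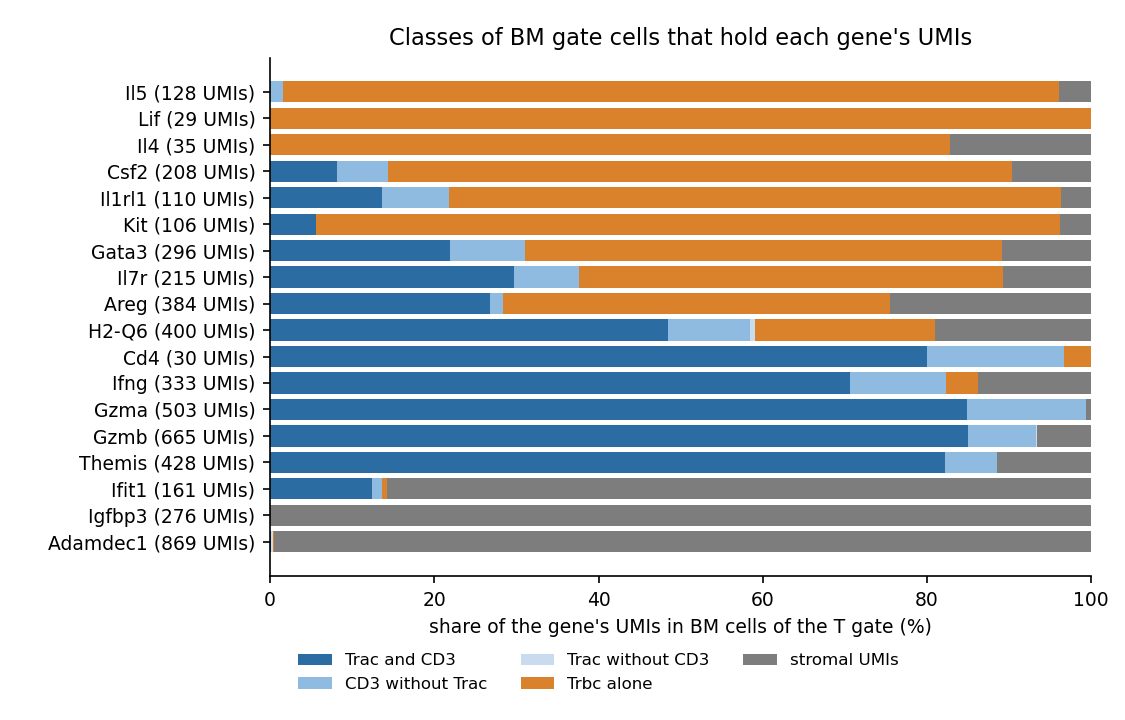
Share of each gene's UMIs (percent, x axis) that lies in each class of cells (colours of the stacked bars) of the BM T gate, for selected genes (y axis, with their BM UMIs). Cells with Trbc UMIs alone hold 94.5% of the Il5 UMIs, and cells with stromal UMIs hold 85.7% of the Ifit1 UMIs.

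Of the type 3 genes' BM UMIs, 1374 lay in the Trbc-alone cells, 799 in the Trac-and-CD3 cells and 712 in the cells with stromal UMIs. Il17a had 0 and 2 UMIs, and Il23r, the IL-23 receptor, 38 and 2 UMIs, of which 21 were in 2 Trbc-alone cells. Tmem176a, a membrane channel gene, was at 265 and 46.2 CPM, 5.74-fold lower in the gate, with 129 of 258 BM UMIs in cells with stromal UMIs and 91 in the Trbc-alone cells, and stood at 329 and 99.2 CPM in the myeloid cells. Among innate-like and gamma-delta genes, Zbtb16 was at 49.3 and 12.5 CPM and Tcrg-C1 at 42.1 and 12.5 CPM in the gate. Tcrg-C1 was at 11.6 and 13.8 CPM in Trac-and-CD3 cells, and the 25 BM UMIs of Zbtb16 lay in 2 cells.

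Type I interferon genes were lower in GVHD, and their UMIs lay in few cells. Ifit1, whose product binds foreign RNA, was at 166 and 18.7 CPM (8.83-fold lower), Ifit2 at 149 and 18.7 CPM (7.95-fold) and Ifit3 at 99.7 and 9.99 CPM (9.98-fold), and Rsad2, an antiviral enzyme gene, had 61 UMIs and 1. Of the 464 BM UMIs of these 4 genes, 95.0% lay in 13 cells that had at least 2 of the genes, and 3 such cells were found in GVHD. Of the 13, 7 were cells with stromal UMIs and held 363 of the 441 UMIs; 3 were Trac-and-CD3 cells, with 55 UMIs. The promoters of Ifit1 and Ifit3 printed above carry the interferon response element, as a small share of mouse promoters does.

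Genes spread over more cells showed a smaller gap. Isg15, a ubiquitin-like modifier, was at 250 and 56.2 CPM, 4.44-fold lower (3.22 to 6.25), in 54 of 129 and 31 of 147 cells, and Bst2 at 185 and 68.7 CPM, 2.69-fold lower (1.98 to 3.71). Irf7, the factor that amplifies interferon production, was 3.16-fold lower (2.04 to 5.08). These 3 genes are given over the whole gate. On the type I interferon list, cells with stromal UMIs summed to 6218 CPM in BM and 3162 CPM in GVHD, against 1484 and 789 CPM in the Trac-and-CD3 cells. In the Trac-and-CD3 cells 5 of 16 measured interferon genes were lower and 0 higher, and Ifit1 had 20 and 2 UMIs. Isg15 was among the 5, and Bst2 and Irf7 were not. Of 24 measured interferon-gamma response genes 1 was higher and 3 lower in the gate; Iigp1, an interferon-induced GTPase gene, had 119 of its 239 BM UMIs in 1 cell.

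Stromal transcripts led the gate's list of extremes and belong to the cells with stromal UMIs. Adamdec1 had 865 of its 869 BM UMIs there, and all 276 of Igfbp3, 206 of Selp and 123 of Fabp4. On the GVHD side all UMIs of Cilp (90), Fmo2 (191), Apod (121, with 110 in 1 cell), Igfbp6 (81) and Slit3 (93) lay there. None of these genes had more than 3 UMIs in the Trac-and-CD3 cells of either side.

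Few immediate-early genes, which answer stimulation and tissue dissociation, passed 2-fold. Fos was at 1199 and 632 CPM and Egr1 at 450 and 255 CPM, and 60.2% of the BM Fos UMIs and 82.0% of the BM Egr1 UMIs lay in cells with stromal UMIs. Of 21 genes 0 were higher and 2 (9.52%) lower in the gate, near the 7.69% of all measured genes, with a median of -0.53, and 0 called in the Trac-and-CD3 cells, with a median of 0.14. The heat shock gene Hspa1b was at 125 and 577 CPM in the Trac-and-CD3 cells (4.61-fold higher, 3.53 to 6.11), in 17 and 23 cells. The other 4 libraries held it at 25.7 to 58.8 CPM, below both. Its direction differed by subset. Within CD4 cells among the Trac-and-CD3 cells it was 14.3-fold higher (6.02 to 44.5), on 5 UMIs in 2 BM cells and 197 in 11 GVHD cells. Within the CD8 cells it was 4.32-fold lower (1.80 to 12.6), on 35 and 6 UMIs.

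Proliferation genes were higher in the gate, with Mcm5 3.37-fold, Pclaf 3.20-fold, Rrm2 2.95-fold and Stmn1 2.83-fold higher. Mki67, a marker of cycling cells, was at 99.7 and 194 CPM in 12 of 129 and 38 of 147 cells. By their cell-cycle UMIs, 14 of 70 Trac-and-CD3 cells in BM (20%) and 24 of 100 in GVHD (24%) counted as cycling, and only 1 of 22 genes was called higher. None of 31 oxidative phosphorylation genes was called in either set of cells, and 1 of 18 glycolysis and hypoxia genes, Hilpda, was lower in the gate.

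RNA of other cells was present at different levels on the 2 sides. The 17 macrophage and monocyte markers summed to 1249 CPM in BM and 1213 CPM in GVHD T cells, against 42432 and 26696 CPM in the myeloid cells, and Fcgr1, which codes for the CD64 of the sort, had 0 UMIs on both sides. Lyz2 had a UMI in 41 and 75 T cells and Apoe in 103 and 47. Epithelial RNA was more common in GVHD: Car1 was at 14.4 and 78.7 CPM and Muc2, the goblet cell mucin, had 1 and 30 UMIs, in 1 and 26 cells, and the 11 epithelial markers summed to 61.7 and 189 CPM. Their part in the results was not tested. Receptor beta variable segments had a UMI in 17 of 129 BM cells (13.2%) and 20 of 147 GVHD cells (13.6%), too few to compare repertoires.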

How the data were processed

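Mouse colon cells were captured in 10x Genomics droplets, with a 5′ and a 3′ kit, per the labels' protocols, which do not assign a kit to a library. The authors deposited raw UMI counts per gene and barcode for each library, made with Cell Ranger 7.0.1 on mm10, per the submitters' processing notes, and no cell annotation was used. From these counts, T cells were gated as described above, UMIs were summed per library and class, and levels were scaled to 1000000 UMIs. Intervals are exact (Poisson for levels, conditional binomial for ratios, Clopper-Pearson for shares) at 95% and cover counting error only. Depth limits them: the T cells of BM and GVHD hold 972944 and 800387 UMIs.

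Named genes include the 12 with the highest and the 12 with the lowest ratio, with 10 CPM added to both levels for ranking. Both sets come from genes with at least 20 CPM and 15 UMIs in 1 library. These genes were also at least as high in T as in myeloid cells. Also named are up to 4 measured genes per list, whether called or not, and lineage and effector genes named throughout. Genes given outside this rule are members of the lists or were chosen after their values were seen. The members and the lists were chosen with earlier results of these data known. Scrublet called 0 doublets automatically in both libraries and so did not work; doublets were not removed, and an alternative left out the 169 BM and 58 GVHD barcodes with the highest scores (0.8% per 1000 barcodes). For 18 listed alternatives and 3 added after seeing the data (stromal-UMI cells left out, Trbc-alone cells left out, Trac-and-CD3 cells alone), every result was recomputed. The counting and interval code was checked on simulated data. Gene coordinates come from GENCODE M21 on GRCm38, which matched 32235 of 32285 gene identifiers, and promoters from RefSeq. Tools were Python 3.11.15, numpy 2.4.6, pandas 2.3.3, scipy 1.17.1, scanpy 1.11.5 (Scrublet) and edgeR 4.0.16 (TMM size factors only). Some genes are not reported here.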

Additional observations from a re-analysis of the deposited data

Results flagged for a closer look

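For 7 genes of the lists, opposite directions between BM and GVHD in T-gate cells with CD8 UMIs and with Cd4 UMIs were flagged. They are not the only such genes. Ifng and Il12rb2, for example, turned in CD4 cells alone and not in CD8 cells alone, as given below. The number of genes looked at and the share of all genes that differ in this way are not given here. The difference between CD8 and CD4 cells was not tested, since each side is 1 library, and the BM CD4 cells number only 13. Egr1 had a log2 ratio of -1.52 in CD8 cells, on 264 BM and 66 GVHD UMIs, and of 3.09 in CD4 cells, on 4 and 119 UMIs. Over the whole gate 82.0% of the BM Egr1 UMIs and 60.2% of the BM Fos UMIs lay in cells with stromal UMIs. In Trac-and-CD3 cells, which leave those out, the GVHD to BM ratio in CD8 cells was 1.03 (0.663 to 1.60) for Egr1, 1.52 (1.11 to 2.09) for Fos, 0.969 (0.600 to 1.55) for Zfp36 and 0.95 (0.709 to 1.27) for Gadd45b, each with an interval that includes no difference or lies above it. In the gate Fos had -0.93 and 1.60, and Zfp36, an RNA decay factor, -0.79 and 2.11, the latter on 5 and 75 UMIs. Gadd45b, a stress response gene, had -0.43 and 1.03. Cd247, the signalling chain of the receptor, had -0.38 in CD8 and 0.68 in CD4 cells. In the other direction, Cd6, a T-cell adhesion receptor, had 0.59 in CD8 and -0.89 in CD4 cells. Klrd1, a receptor of killer cells, had 1.41 in CD8 and -1.22 in CD4 cells, the latter on 14 and 21 UMIs.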

How the results depend on the processing

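No paired analysis was possible because each group is 1 library, and for the same reason no replicate could be left out. Of the values that answer a comparison, 504 recomputed ones stayed the same, 65 moved and 7 turned direction; for single genes and other values the counts were 1705, 336 and 26. TMM and median-of-ratios scaling lowered all log2 ratios by 0.10 and 0.14, and all 72 called named genes kept their direction under TMM, 66 of them past 2-fold. Of 49 with a value in Trac-and-CD3 cells, 46 kept their direction and 29 were past 2-fold. The cause of the changes below was not tested.

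Keeping shared barcodes in BM put its T-gate share at 3.29%. Leaving them out of both gave a GVHD T-gate share of 21.6% and CD8 share of 26.7%, 816 genes higher and 863 lower, and medians of 0.91 for CD4 helper, 0.017 for CD8, -2.75 for type 3, -0.36 for immediate-early, 0.21 for cell-cycle and -0.43 for oxidative phosphorylation genes. A gate of 5 UMIs gave a GVHD share of 4.56%, and looser cell filters a type 3 median of -1.38. Without cycling cells the medians were 0.61 for CD8, -1.77 for type 3, 0.039 for stress and 0.074 for cell-cycle genes, and Stmn1 turned to -0.14.

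Thinned to 1000 UMIs, CD8 shares were 20% in GVHD and 27.9% in BM, CD4 shares 11.7% and 3.10%, 1398 genes were higher and 982 lower, the medians were -0.050 for CD8, -0.58 for type 3 and -0.29 for oxidative phosphorylation genes, and Gzmd and Rrm2 turned to -0.17 each. With cells weighted equally, 795 genes were higher, and medians were -0.027 for killing, -0.35 for immediate-early and -0.32 for oxidative phosphorylation genes. A floor of 5 CPM gave 1361 higher and 1297 lower genes and a type 3 median of -1.59, and a floor of 50 CPM gave 185 and 248. Without genes higher in myeloid cells the stress median was 0.30.

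In CD4 cells alone, 1139 genes were higher and 1246 lower, and medians were -0.27 for receptor signalling, -0.21 for CD4 helper, -0.69 for CD8, -0.078 for type 1, -0.35 for type 3, -0.58 for regulatory, 0.44 for naive and memory, 0.48 for immediate-early, 0.31 for stress, 0.75 for interferon-gamma response and -0.58 for type I interferon genes. Genes that turned there were Apod (-0.064), Cd6 (-0.89), Tnfrsf4 (-0.58), Cd160 (-0.22), Klrd1 (-1.22), Gzmc (-0.80), Ifng (-0.042), Il12rb2 (-0.12), Gem (0.68), Zfp36 (2.11), Atf3 (0.27), Rrm2 (-0.39), Iigp1 (2.20) and Ifi47 (0.20). In CD8 cells alone, medians were -0.13 for CD4 helper, -0.43 for type 3, 0.37 for type 2, 0.75 for innate-like and -0.70 for stress genes, and Tbc1d4 (-0.42), Tnfrsf4 (-0.021), Tcrg-C1 (2.07) and Kit (2.54) turned.

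Without stromal-UMI cells the medians were -1.90 for type 3 and 0.35 for naive and memory genes, and Iigp1 turned to 2.86. Without Trbc-alone cells the BM T-gate share was 3.85% and its CD8 share 68.4%, medians were -0.14 for type 3, -0.61 for type 2, 0.41 for regulatory, 0.25 for innate-like and -0.18 for immediate-early genes, and Kit turned to 2.02. In Trac-and-CD3 cells alone, T-gate shares were 3.71% in GVHD and 2.75% in BM, the BM CD8 share 75.7%, 333 genes were lower, medians were 0.032 for CD8, 0.015 for type 3, -0.37 for type 2, 0.14 for immediate-early and 0.10 for cell-cycle genes, and Kit (2.06), Zfp36 (0.29) and Iigp1 (2.93) turned.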
